A study of Homo sapiens with 16 samples.

Results

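The direct comparison of cells carrying H2A(E92K) with H2A cells given the BET inhibitor JQ1 was described across all genes. It took 8 of the 16 RNA-seq libraries of the series, chosen by their labels. The cells were HEK293T, a human embryonic kidney line that holds the SV40 large T antigen. The 4 E92K libraries came from cells with a lentivector for H2A(E92K), given DMSO. The 4 JQ1 libraries came from cells with a lentivector for H2A, given 1 µM JQ1 for 3 h. A further group, 4 libraries of the H2A line with DMSO, is given beside many of the genes as the level without mutation or compound. The treatment field of the DMSO samples lists none while their titles name DMSO, and no time with DMSO is given. The last 4 libraries, H2A cells with 2.5 µM pinometostat for 24 h, entered the estimate of the spread and are otherwise not described. Both cell lines keep their own H2A genes, and the labels name neither the H2A gene in the vector nor its promoter. The labels number the samples without saying that they were separate cultures, so p-values cover the spread among them alone, and part or all of it may be technical. E92K and JQ1 cells differed in genotype, compound and possibly handling together, and these cannot be told apart in the direct contrast. In bulk RNA, fewer cells of a type and less RNA per cell cannot be told apart either.

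The acidic patch is a cluster of acidic residues that H2A and H2B form on the face of the nucleosome, and many chromatin proteins dock there through an arginine. The E92K change puts a lysine in the place of one of its glutamates. BET proteins, such as BRD2 and BRD3, bind acetylated lysines on histone tails and bring the elongation kinase P-TEFb, made of CDK9 and a cyclin T, to promoters. JQ1 occupies their acetyl-lysine pocket. In many cell types BET inhibition is known to free P-TEFb from its inhibitory complex, to raise HEXIM1 and histone messages, and to lower genes that depend on strong enhancers.

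E92K libraries held 22372028 to 25657327 counts and JQ1 libraries 17779692 to 21709716 counts, within a range of 17779692 to 27599686 over the series. E92K replicate 4 and JQ1 replicate 1 stood apart from the others of their group. Mitochondrial messages took 7.45% of counts in E92K replicate 4 and 3.77% to 4.95% in the remaining E92K libraries. They took 16.5% in JQ1 replicate 1 and 3.04% to 3.69% in the remaining JQ1 libraries. The deviations of these libraries from their group means were correlated across genes, with r = 0.81, and the part of this in the results was not tested. Counts over gene lists are therefore given with all 8 libraries and without these 2. The kidney list had 10 of 20 members above the filter on low counts, among them the nephron progenitor factors SIX2 and CITED1, and 3 of the 20 had no count in the 8 libraries. Blood cell markers took at most 0.000635% of counts in E92K and 0.000613% in JQ1 libraries, with 2 of 12 members above the filter.

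The promoters of the 3 histone genes named below and of HEXIM1 are shown because these genes had some of the clearest differences in level between E92K and JQ1 cells; they were chosen after their values were seen. Each sequence runs from 250 bases before to 50 bases after the annotated start, 5′ to 3′ on the gene's own strand, from RefSeq on GRCh38.p14. Capitals mark matches on either strand to the TATA box TATAAA, to the CCAAT box, to the CRE palindrome TGACGTCA, to the AP-1 motif TGANTCA and to the E-box CACGTG. In HIST1H2BK the capitals TTTATAAA are overlapping matches to TATAAA on both strands.
HIST1H2AC: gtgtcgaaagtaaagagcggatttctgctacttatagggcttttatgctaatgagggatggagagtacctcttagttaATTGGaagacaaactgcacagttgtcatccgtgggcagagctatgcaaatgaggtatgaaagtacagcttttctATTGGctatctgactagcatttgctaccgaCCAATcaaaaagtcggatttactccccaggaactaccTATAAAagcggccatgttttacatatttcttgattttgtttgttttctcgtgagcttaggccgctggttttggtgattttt
HIST1H2BD: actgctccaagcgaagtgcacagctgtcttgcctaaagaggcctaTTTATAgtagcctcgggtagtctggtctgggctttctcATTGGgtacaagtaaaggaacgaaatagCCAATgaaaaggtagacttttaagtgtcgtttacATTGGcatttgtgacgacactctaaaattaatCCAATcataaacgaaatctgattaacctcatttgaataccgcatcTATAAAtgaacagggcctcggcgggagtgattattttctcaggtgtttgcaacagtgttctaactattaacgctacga
HIST1H2BK: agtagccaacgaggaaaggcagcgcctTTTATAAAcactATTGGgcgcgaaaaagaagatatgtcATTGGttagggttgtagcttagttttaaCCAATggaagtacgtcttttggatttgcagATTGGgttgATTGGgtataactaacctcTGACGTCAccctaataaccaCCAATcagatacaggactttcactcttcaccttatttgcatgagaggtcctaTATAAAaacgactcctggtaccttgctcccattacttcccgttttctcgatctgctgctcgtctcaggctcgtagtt
HEXIM1: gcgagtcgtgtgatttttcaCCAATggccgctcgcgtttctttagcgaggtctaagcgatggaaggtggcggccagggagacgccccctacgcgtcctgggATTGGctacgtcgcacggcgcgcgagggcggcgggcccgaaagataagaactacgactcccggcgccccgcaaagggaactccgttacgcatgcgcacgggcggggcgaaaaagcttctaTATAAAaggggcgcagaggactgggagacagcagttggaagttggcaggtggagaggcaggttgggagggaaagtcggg
HIST1H2AC, HIST1H2BD and HIST1H2BK lie in the large histone cluster, at chr6:26123922-26124221 (plus strand), chr6:26157871-26158170 (plus strand) and chr6:27146809-27147108 (minus strand). The HEXIM1 window is chr17:45148225-45148524 (plus strand). Of the 33 tested replication-dependent histone genes, 29 matched a RefSeq promoter. TATAAA was found in 18 of them (62.07%), against 11.95% of all 27305 RefSeq promoters of this length. CCAAT was found in 24 (82.76%), against 35.7% of all, and TGACGTCA in 4 (13.79%), against 1.978% of all. TGANTCA and CACGTG were found in 0 of the 29, against 7.764% and 7.435% of all. A match describes these letters in this window and shows no bound factor. Shares are given for the histone list alone.

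Of 57500 genes, 17306 passed the filter on low counts, and 3962 of them (22.9%) differed between E92K and JQ1 cells at an adjusted p below 0.05. Adjusted p-values come from edgeR's two-sided quasi-likelihood test, with the Benjamini-Hochberg method applied to the whole set of tested genes. Relative to JQ1 cells, 2068 genes (11.9%) were higher in E92K cells and 1894 (10.9%) were lower. A difference of at least 1 on the log2 scale was reached by 653 of the higher and 267 of the lower genes, and of at least 2 by 87 and 33. The median log2 difference over all tested genes was -0.03. E92K and JQ1 values did not overlap for 3481 genes (20.1%). Genes named below were largely chosen by size, adjusted p or lack of overlap in these same values, so those are not separate support. Without E92K replicate 4 and JQ1 replicate 1, 2928 of 17446 genes (16.8%) were higher and 2584 (14.8%) were lower. Of the 3962 genes called with all libraries, 3722 were called again with the same sign and 0 with the opposite sign. The split depended on scaling: 52.2% of the called genes were higher in E92K cells with TMM factors, 66.1% with upper-quartile factors and 80.1% with library size alone. It was 86.5% in TPM. Results in TPM here and below come from limma on log2(TPM + 1), so the test changed as well as the scaling. Library size alone moved the median of all genes to 0.11 and TPM to 0.12.

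**Figure D1:**
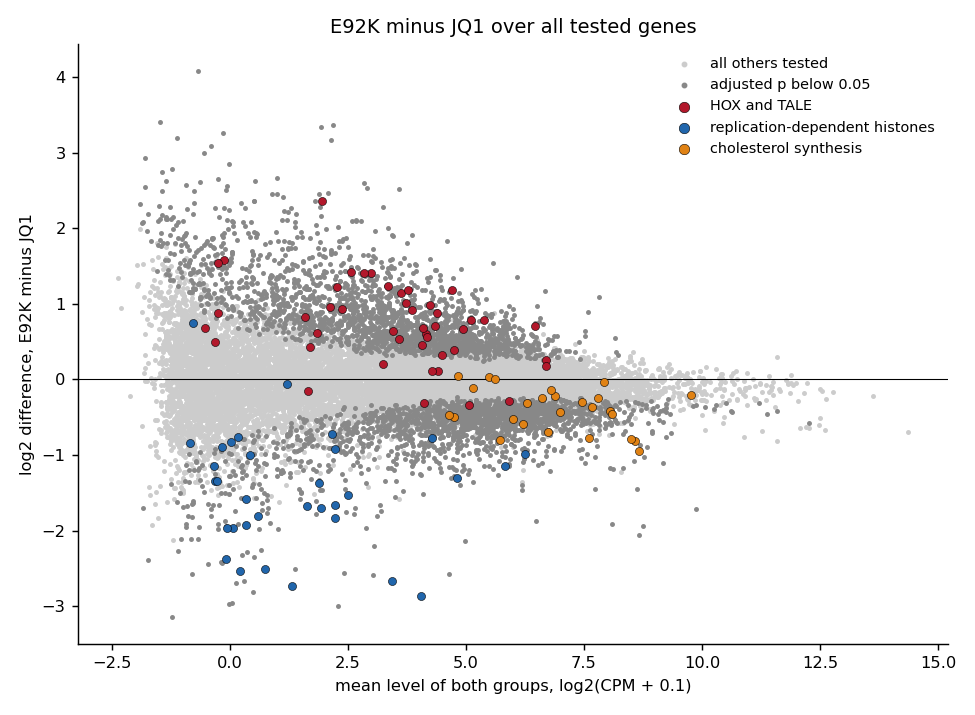
Log2 difference E92K minus JQ1 (vertical axis) against the mean level of both groups in log2(CPM + 0.1) (horizontal axis) for the 17306 tested genes. Coloured points are the HOX and TALE genes, mostly above 0, and the replication-dependent histone and cholesterol synthesis genes, mostly below 0.

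The genes higher in E92K cells and those higher in JQ1 cells differed in composition. The 2068 genes higher in E92K cells had a median GC content of 45.3% in their longest annotated transcript and a median of 6 exons. The 1894 genes lower in E92K cells had a median GC content of 57.3% and 13 exons, and all tested genes 48.8% and 9 exons. Without E92K replicate 4 and JQ1 replicate 1, the GC medians were 44.3% for the higher and 55.7% for the lower genes. Protein-coding genes made up 85.6% of the higher genes, 94.7% of the lower genes and 80.7% of all tested genes. Antisense genes made up 5.03% of the higher genes, 1.43% of the lower genes and 6.06% of all tested genes. Whether the counting used strand is not given in the sources used here, so reads of a gene and of its antisense partner cannot be told apart.

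Genes known to respond to BET inhibitors were lower in E92K than in JQ1 cells. Of 10 genes known to rise with BET inhibitors, 9 were lower in E92K cells and 1 was higher, against 10.9% and 11.9% of all tested genes, with a median log2 difference of -1.75. The counts were the same without the 2 libraries, and the median was -1.54. Of these genes, 1 passed the filter on low counts through the JQ1 libraries: 9 also passed it in the 8 libraries of the other groups, and 8 of those were lower and 1 higher. Of the 10, 5 are histone genes that the histone list below holds as well, so these lists are not separate evidence. HEXIM1, which holds P-TEFb inactive on the 7SK RNA, had 36.0, 35.2, 41.3 and 40.4 CPM, which scales counts to the TMM-adjusted library size, in E92K libraries. It had 213, 121, 111 and 114 CPM in JQ1 libraries, and 39.5, 32.7, 29.8 and 29.8 CPM in H2A libraries with DMSO. Every E92K library lay below every JQ1 library, and the high value was JQ1 replicate 1. HEXIM1 had a log2 difference of -1.87 ± 0.18 (SE; adjusted p = 1.33e-06), and of -1.60 without the 2 libraries. Over 14.4% of its exonic length HEXIM1 overlaps AC138150.1 on the other strand. SERTAD1, a cyclin-dependent kinase regulator, had 7.68, 6.23, 5.82 and 9.17 CPM in E92K libraries, against 47.5, 41.8, 42.3 and 40.0 CPM in JQ1 libraries. The groups did not overlap, and H2A libraries with DMSO had 5.78 to 8.49 CPM. SERPINI1, which encodes neuroserpin, had 8.01 ± 1.87 CPM (SD, n = 4) in E92K, 12.4 ± 0.643 CPM in JQ1 and 7.64 ± 1.31 CPM in H2A cells with DMSO.

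Among the BET proteins and P-TEFb factors themselves, 20 of 21 were tested, and 9 were lower and 1 was higher in E92K cells. Over all tested genes, 10.9% were lower and 11.9% higher. Without the 2 libraries 12 were lower and 2 higher, against 14.8% and 16.8% of all tested genes. The number of lower genes depended on the scaling, with 4 lower for library size alone, and 3 were lower in TPM. Over all 17306 tested genes, 710 were lower for library size alone and 295 in TPM. The median was -0.44 with TMM factors, -0.26 with library size alone and -0.20 in TPM. BRD2 had 327, 366, 399 and 377 CPM in E92K libraries, 927, 746, 762 and 717 CPM in JQ1 libraries, and 344 to 415 CPM in H2A libraries with DMSO. E92K and JQ1 values of BRD2 did not overlap, and the log2 difference was -1.10 ± 0.11 (adjusted p = 1.81e-06). BRD3 differed by -0.44 ± 0.12 (adjusted p = 0.013). Its call was kept in 18 of 23 other settings and was lost, for example, without E92K replicate 4 (adjusted p = 0.0555). Over 18.6% of its exonic length BRD3 overlaps BRD3OS on the other strand. CDK9, the kinase of P-TEFb, had 64.2 ± 4.82 CPM in E92K, 109 ± 8.26 CPM in JQ1 and 67.0 ± 5.33 CPM in H2A cells with DMSO (SD, n = 4 each). HEXIM2, the relative of HEXIM1, went the other way, with 3.94 ± 0.503 CPM in E92K, 2.22 ± 0.548 CPM in JQ1 and 3.86 ± 0.455 CPM in H2A cells with DMSO.

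**Figure D2:**
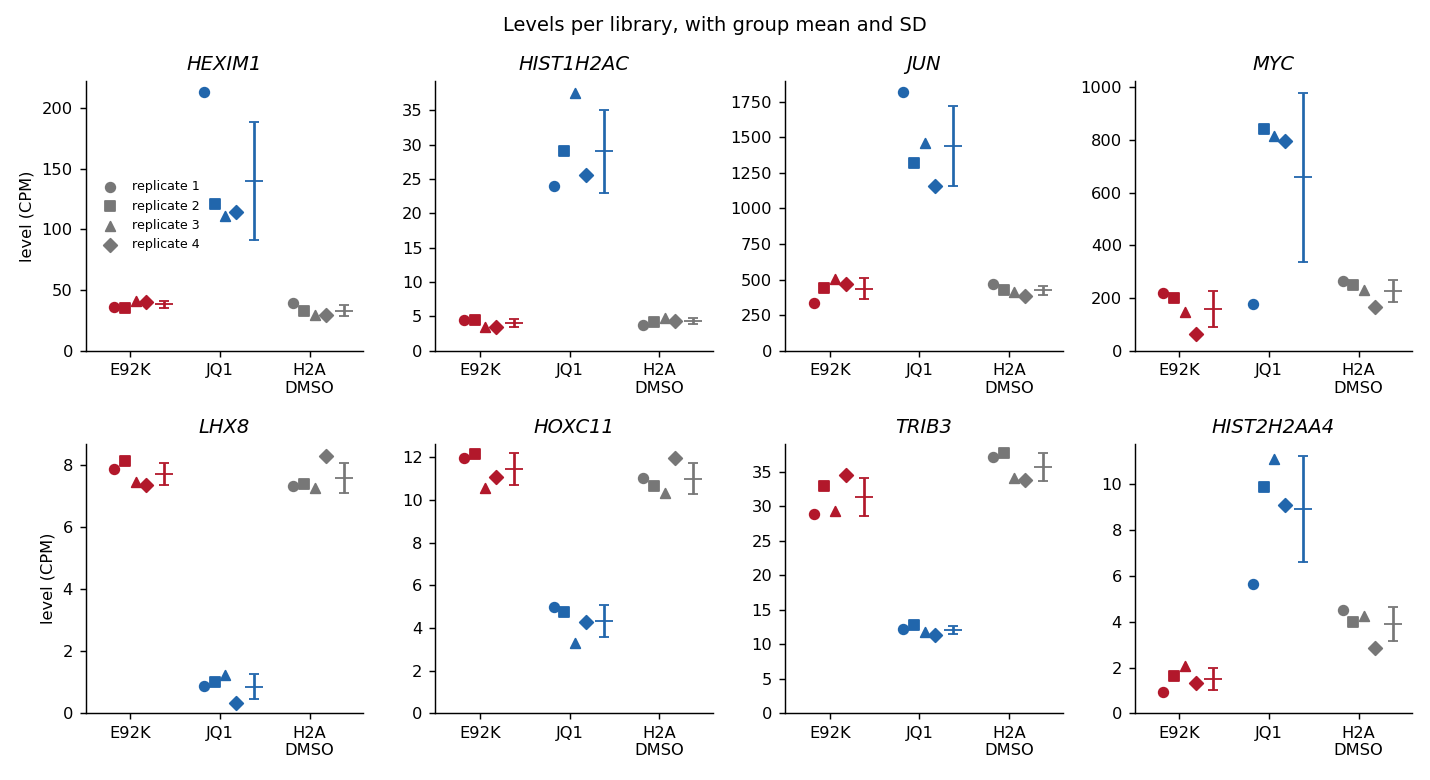
Levels in CPM (vertical axes, from 0) of 8 genes in each E92K, JQ1 and H2A DMSO library, with marker shapes for replicates 1 to 4 and the group mean with SD beside them. JQ1 libraries lie above both other groups for HEXIM1, HIST1H2AC, JUN and HIST2H2AA4 and below them for LHX8, HOXC11 and TRIB3, while for MYC the first JQ1 library lies with the E92K libraries.

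Messages of replication-dependent histones, which are made in S phase and mostly lack a poly(A) tail, were lower in E92K than in JQ1 cells. Of the 64 genes on the list, 33 passed the filter, and 26 of these were lower and 0 higher. Of all tested genes, 10.9% were lower and 11.9% higher. The median log2 difference was -1.38. Some of these genes passed the filter through the JQ1 libraries: 30 also passed it in the 8 libraries of the other groups, and 23 of those were lower. Without E92K replicate 4 and JQ1 replicate 1, 23 were lower, 0 were higher and the median was -1.29. By class, 11 of 12 tested H2B genes, 6 of 8 H2A genes, 5 of 7 H4 genes, 3 of 4 H3 genes and 1 of 2 linker H1 genes were lower. These class counts include the genes that passed the filter through the JQ1 libraries. Near-identical copies within each class can share reads, so the level of any single histone gene is uncertain.

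HIST1H2AC, an H2A gene, had 4.50, 4.43, 3.48 and 3.44 CPM in E92K libraries. It had 23.9, 29.1, 37.5 and 25.5 CPM in JQ1 libraries and 3.75, 4.18, 4.80 and 4.39 CPM in H2A libraries with DMSO. The lowest JQ1 library was thus above every library of both other groups. The log2 difference E92K minus JQ1 was -2.87, the largest fall of the genes named by size, with an adjusted p of 3.95e-08. HIST1H2BD, an H2B gene, had 2.56 to 3.36 CPM in E92K libraries, 16.3 to 25.1 CPM in JQ1 libraries and 3.20 to 4.17 CPM in H2A libraries with DMSO, and its log2 difference was -2.66. HIST1H2BK, the H2B gene with a TGACGTCA match in the promoter above, had a higher level and a smaller difference, with 35.5 ± 4.59 CPM in E92K, 78.4 ± 5.09 CPM in JQ1 and 41.4 ± 3.15 CPM in H2A cells with DMSO (log2 difference -1.14 ± 0.10).

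The H2A genes HIST2H2AA3 and HIST2H2AA4 on chromosome 1 lie near each other and encode the same protein. HIST2H2AA4 had 0.949, 1.64, 2.09 and 1.34 CPM in E92K libraries, 5.66, 9.86, 11.1 and 9.09 CPM in JQ1 libraries, and 4.51, 4.01, 4.23 and 2.85 CPM in H2A libraries with DMSO. The E92K libraries lay below all libraries of both other groups. The log2 difference from JQ1 was -2.57 ± 0.25 (adjusted p = 1.53e-06). The difference from H2A with DMSO was -1.37 and did not pass the test in edgeR (adjusted p = 0.266), but it passed in DESeq2 (DESeq2 adjusted p = 0.000516). HIST2H2AA3 had 0.622 ± 0.154 CPM in E92K, 4.17 ± 0.712 CPM in JQ1 and 1.65 ± 0.522 CPM in H2A cells with DMSO. It was named after its values were seen, as the near-identical copy of HIST2H2AA4, and reads of one cannot be told from those of the other. Whether any of these counts came from the vector's H2A was not tested.

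Of 11 tested variant histone genes, 3 were lower in E92K cells and 0 were higher, that is 27.3% called against 22.9% of all tested genes, with a median log2 difference of -0.28. In the fit without the 2 libraries, 4 were lower and the median was -0.15. H2AFX, the variant that is phosphorylated at DNA breaks, had 171, 158, 142 and 184 CPM in E92K libraries and 511, 339, 317 and 309.6 CPM in JQ1 libraries. Its groups did not overlap, and the log2 difference was -1.17 ± 0.14. H3F3B, one of the genes for H3.3, had 495 ± 31.9 CPM in E92K, 811 ± 28.4 CPM in JQ1 and 513 ± 10.1 CPM in H2A cells with DMSO. H1F0, a linker histone of resting cells, differed by -0.59 ± 0.11. H2AFZ, which encodes H2A.Z, did not pass the test and had a 95% interval of -0.42 to 0.12 for its log2 difference. H2AFV, H2AFJ, H2AFY and H2AFY2 did not pass the test either, with log2 differences between -0.37 and 0.11.

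Of 30 tested genes for proteins known to dock on the acidic patch, 5 were higher and 2 were lower in E92K cells. This was 23.3% called, near the 22.9% of all tested genes, and the median log2 difference was 0.01. Without the 2 libraries 7 were higher and 3 lower, and with library size alone 7 were higher and 0 lower. BMI1 and RNF2, subunits of the Polycomb complex that ubiquitinates H2A, were higher. BMI1 had 71.3, 71.4, 73.0 and 85.0 CPM in E92K libraries, 38.7, 40.5, 41.1 and 42.5 CPM in JQ1 libraries, and 58.5 to 75.5 CPM in H2A libraries with DMSO. The E92K and JQ1 values did not overlap (log2 difference 0.88 ± 0.10), although 23.3% of BMI1's exonic length is shared with the readthrough gene COMMD3-BMI1. RNF2 had 67.9 ± 7.25 CPM in E92K, 42.3 ± 4.41 CPM in JQ1 and 55.1 ± 10.6 CPM in H2A cells with DMSO. USP51, a deubiquitinase of H2A, had a log2 difference of 1.24 ± 0.19, and RNF168, a ubiquitin ligase of H2A at DNA breaks, one of -0.64.

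**Figure D3:**
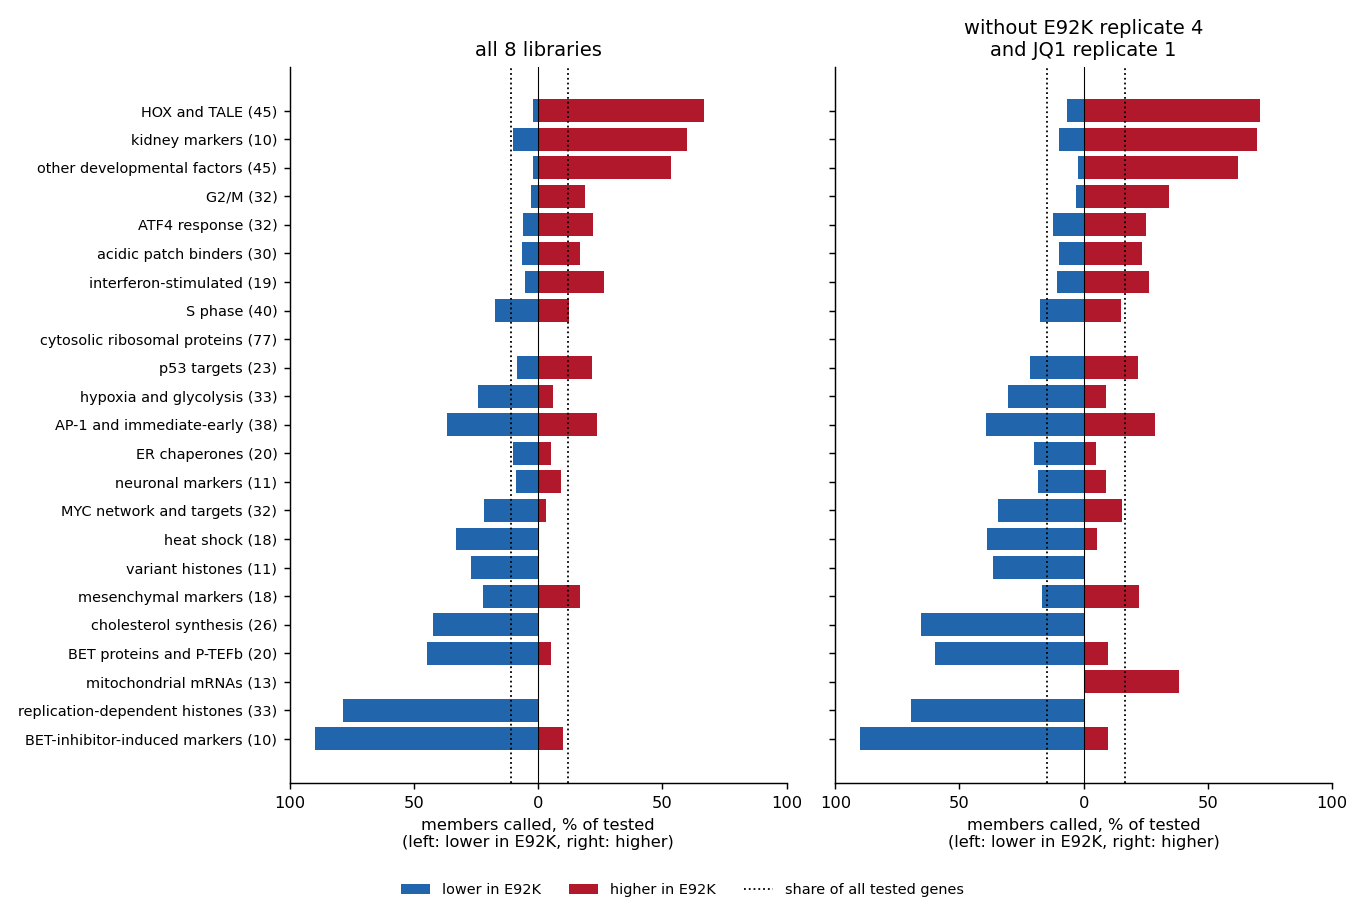
Share of tested members called higher (right, red) or lower (left, blue) in E92K than in JQ1 cells for 23 gene lists, with the number tested in parentheses, using all 8 libraries (left panel) or without E92K replicate 4 and JQ1 replicate 1 (right panel). Dotted lines give the share of all tested genes, which the HOX and TALE list exceeds on the right and the histone, cholesterol synthesis and BET lists exceed on the left.

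HOX genes, which give cells their position along the body axis, were higher in E92K than in JQ1 cells across all clusters. Of 36 tested HOX genes, 28 were higher, 0 were lower and 8 did not pass the test, and all 36 had a log2 difference above 0 (median 0.81). The shares of all tested genes were 11.9% higher and 10.9% lower. The 2 libraries left out, 30 were higher, against 16.8% of all tested genes, and the median was 0.89. In the HOXA cluster 10 of 11 were higher, in HOXB 8 of 9, in HOXC 7 of 8 and in HOXD 3 of 8. HOXC11 had 11.97, 12.2, 10.6 and 11.1 CPM in E92K libraries, 5.00, 4.74, 3.31 and 4.29 CPM in JQ1 libraries, and 11.04, 10.6, 10.3 and 11.98 CPM in H2A libraries with DMSO. The E92K and DMSO libraries lay together, and both lay above all JQ1 libraries (E92K minus JQ1 1.41 ± 0.13, adjusted p = 7.49e-07). HOXA9, a posterior HOX gene, had 45.4, 45.4, 44.7 and 37.7 CPM in E92K libraries and 19.7, 27.7, 27.5 and 25.7 CPM in JQ1 libraries, with no overlap and a log2 difference of 0.78 ± 0.11. HOXC8 had the largest difference of the HOX genes, with 6.32 ± 1.82 CPM in E92K, 1.28 ± 0.832 CPM in JQ1 and 5.32 ± 0.507 CPM in H2A cells with DMSO.

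The TALE cofactors, which bind DNA together with HOX proteins, were less uniform. Of 9 tested, 2 were higher, 1 was lower and 6 did not pass the test. Over all tested genes 11.9% were higher and 10.9% were lower. Without the 2 libraries 2 were higher and 3 lower. MEIS1 had 16.4, 16.8, 16.6 and 21.1 CPM in E92K libraries, 9.57, 8.01, 9.01 and 8.53 CPM in JQ1 libraries, and 13.9 to 15.96 CPM in H2A libraries with DMSO. The E92K values were above all JQ1 values (log2 difference 1.01 ± 0.11). MEIS3 was lower, with a log2 difference of -0.34 (adjusted p = 0.0264), and PBX2, PBX3 and PBX4 lay between -0.16 and 0.17 without passing the test.

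Other developmental transcription factors were also mostly higher in E92K cells: 24 of 45 tested, with 1 lower and a median log2 difference of 0.49. This was 55.6% called, against 22.9% of all tested genes. With those 2 libraries left out, 28 were higher and 1 was lower. LHX8, a LIM homeobox gene of the forebrain, had 7.88, 8.14, 7.46 and 7.38 CPM in E92K libraries. It had 0.870, 1.03, 1.24 and 0.326 CPM in JQ1 libraries and 7.28 to 8.30 CPM in H2A libraries with DMSO, so that the JQ1 libraries stood apart. Its log2 difference E92K minus JQ1 was 3.16 ± 0.22 (adjusted p = 5.72e-08). OTX2, a head organiser gene, had 7.02, 5.66, 8.28 and 11.5 CPM in E92K libraries, 0.580, 0.635, 0.828 and 1.03 CPM in JQ1 libraries, and 6.54 to 8.94 CPM in H2A libraries with DMSO (log2 difference 3.37). DLX1, a homeobox gene of interneurons, differed by 1.53 ± 0.11 and ZIC5, a zinc finger gene of the neural crest, by 1.52 ± 0.11. NKX2-4 had 11.1, 10.9, 11.02 and 17.1 CPM in E92K libraries and 2.76, 1.86, 1.81 and 2.33 CPM in JQ1 libraries (log2 difference 2.53 ± 0.19). PRDM13, a regulator of neural subtype, differed by 2.10 ± 0.23. SOX4, the only one of the list that was lower, had 196 ± 27.8 CPM in E92K, 443 ± 187 CPM in JQ1 and 179.9 ± 28.1 CPM in H2A cells with DMSO.

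Of 10 tested kidney markers, 6 were higher and 1 was lower in E92K cells, and 7 and 1 without the 2 libraries. With all libraries 70.0% were called, against 22.9% of all tested genes. The 6 higher genes are also on the list of developmental factors, so the lists are not separate evidence. WT1, needed for the early kidney, had 5.20, 5.58, 7.17 and 4.29 CPM in E92K libraries, 0.725, 1.90, 1.71 and 1.35 CPM in JQ1 libraries, and 4.96 to 6.38 CPM in H2A libraries with DMSO. Its E92K and JQ1 values did not overlap (log2 difference 1.93 ± 0.24). GATA3, of the nephric duct, differed by 1.34 ± 0.17, and SIX2, of nephron progenitors, by 0.85 ± 0.13. CITED1, also of nephron progenitors, was lower, with 180.2 ± 23.4 CPM in E92K, 266 ± 73.2 CPM in JQ1 and 168 ± 27.6 CPM in H2A cells with DMSO. Of 18 mesenchymal markers 3 were higher and 4 were lower (38.9% called, against 22.9% of all tested genes). Without the 2 libraries 4 were higher and 3 lower, and the median was -0.04, against -0.30 with all libraries. ZEB2 and SNAI2, both repressors of epithelial genes, went opposite ways, with log2 differences of 1.47 ± 0.14 for ZEB2 and -1.12 ± 0.10 for SNAI2. Of 11 neuronal markers 1 was higher (ELAVL2, 0.67 ± 0.13) and 1 was lower (TUBB3, at 0.89 ± 0.341 CPM in E92K and 1.96 ± 0.674 CPM in JQ1 cells), and 1 and 2 without the 2 libraries. The share called with all libraries was 18.2%, below the 22.9% of all tested genes.

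**Figure D4:**
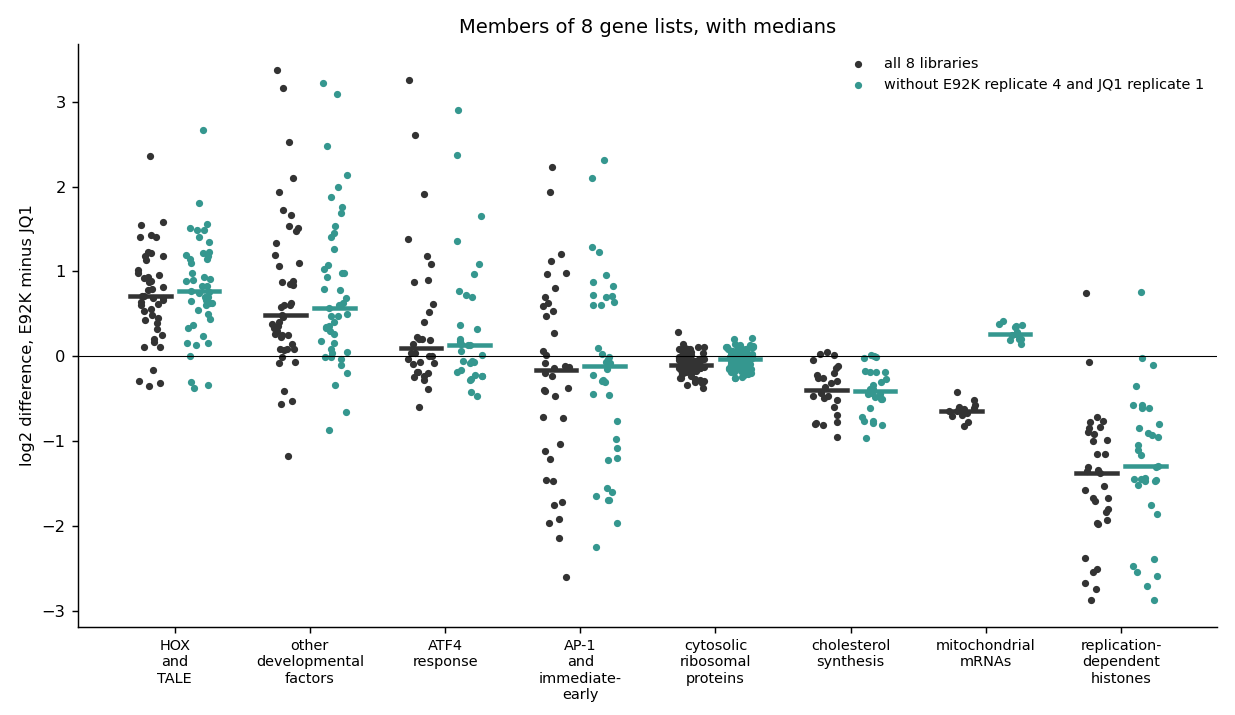
Log2 difference E92K minus JQ1 (vertical axis) of each tested member of 8 gene lists, with all 8 libraries (dark) and without E92K replicate 4 and JQ1 replicate 1 (green), and the median as a bar. The medians of 0.71 for HOX and TALE and -1.38 for histones stay on their side without the 2 libraries, while that of the mitochondrial messages turns.

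AP-1 and other immediate-early genes, which respond first to a stimulus, split into opposite sets. Of 38 tested, 14 were lower in E92K cells and 9 were higher, and 15 and 11 without the 2 libraries. With all libraries 60.5% were called, against 22.9% of all tested genes. JUN had 336, 443, 500.5 and 469 CPM in E92K libraries, 1820.3, 1317, 1462 and 1154 CPM in JQ1 libraries, and 386 to 467 CPM in H2A libraries with DMSO. The groups did not overlap, and the log2 difference was -1.72 ± 0.14 (adjusted p = 4.09e-07). JUND and FOS, further AP-1 subunits, differed by -1.92 ± 0.28 and -1.96 ± 0.24. GADD45B, a stress-induced regulator of p38 signalling, differed by -2.13 ± 0.20, and ARC, a synaptic immediate-early gene, by -2.59 ± 0.29. Other members were higher in E92K cells. DUSP2, a nuclear phosphatase of ERK, had 3.22, 2.91, 3.03 and 4.70 CPM in E92K libraries, 1.16, 0.586, 0.569 and 0.700 CPM in JQ1 libraries, and 2.83 to 3.49 CPM in H2A libraries with DMSO. Its groups did not overlap (log2 difference 2.23 ± 0.23). FOSL1, an AP-1 subunit that depends on ERK, had 2.18 ± 0.290 CPM in E92K, 0.577 ± 0.185 CPM in JQ1 and 2.02 ± 0.439 CPM in H2A cells with DMSO. The median of the list was -0.16 and turned to 0.01 in TPM.

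MYC itself was lower in E92K cells. It had 219, 202, 147 and 64.6 CPM in E92K libraries, 178, 841, 816 and 797 CPM in JQ1 libraries, and 264, 249.97, 229 and 168 CPM in H2A libraries with DMSO. JQ1 replicate 1 lay within the E92K range, so the groups overlapped, and the other 3 JQ1 libraries lay above every library of both other groups. The log2 difference was -2.06 ± 0.39 (adjusted p = 0.000976), and -2.09 ± 0.16 (adjusted p = 9.12e-09) without E92K replicate 4 and JQ1 replicate 1. MXD1, which competes with MYC for its partner MAX, had 5.70 ± 1.01 CPM in E92K, 16.8 ± 3.28 CPM in JQ1 and 5.79 ± 0.924 CPM in H2A cells with DMSO (log2 difference -1.56 ± 0.17). Over 3.73% of its exonic length MXD1 overlaps SNRNP27 on the same strand. MYCL, a MYC relative, was higher, with 11.8 ± 2.34 CPM in E92K, 5.71 ± 2.06 CPM in JQ1 and 12.9 ± 0.924 CPM in H2A cells with DMSO. Of the 32 genes of the MYC network and its targets, 7 were lower and 1 was higher in E92K cells, and 11 and 5 without the 2 libraries. With all libraries 25.0% were called, near the 22.9% of all tested genes. With library size alone 2 were lower and 5 higher, so the balance of this list depended on the scaling.

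Genes of cholesterol synthesis and uptake were lower in E92K than in JQ1 cells: 11 of 26 tested, with 0 higher and a median log2 difference of -0.39. This was 42.3% called, against 22.9% of all tested genes. Without E92K replicate 4 and JQ1 replicate 1, 17 were lower, against 14.8% of all tested genes, and 0 higher. SQLE, the squalene epoxidase, had 266, 287, 289.6 and 262 CPM in E92K libraries, 463, 551, 611 and 504 CPM in JQ1 libraries, and 279 to 309.7 CPM in H2A libraries with DMSO. The E92K and JQ1 values did not overlap (log2 difference -0.95 ± 0.11, adjusted p = 1.33e-05). INSIG1, which retains the sterol sensor in the ER, differed by -0.81. In TPM 1 gene was lower, and the median was -0.18.

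Of the 32 genes of the ATF4 response to amino acid shortage, 7 were higher and 2 were lower in E92K cells, that is 28.1% called against 22.9% of all tested genes. Without the 2 libraries 8 were higher and 4 lower. INHBE, an activin subunit, had 9.49, 11.01, 11.2 and 17.2 CPM in E92K libraries, 1.81, 1.95, 1.501 and 2.70 CPM in JQ1 libraries, and 8.01 to 19.5 CPM in H2A libraries with DMSO. Its E92K and JQ1 values did not overlap, and the log2 difference of 2.601 ± 0.451 was the largest rise among the genes named by size. TRIB3, a pseudokinase that restrains ATF4, had 28.9, 32.9, 29.3 and 34.5 CPM in E92K libraries, 12.2, 12.7, 11.8 and 11.4 CPM in JQ1 libraries, and 33.8 to 37.8 CPM in H2A libraries with DMSO (log2 difference 1.38 ± 0.17). ADM2, a peptide hormone, differed by 1.91 ± 0.32 and VLDLR, a lipoprotein receptor, by 1.18 ± 0.16. ATF4, the factor itself, was lower, with 1054 ± 25.8 CPM in E92K, 1379 ± 194 CPM in JQ1 and 1080.1 ± 15.01 CPM in H2A cells with DMSO.

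Of 18 heat shock genes, 6 were lower and 0 were higher in E92K cells, that is 33.3% called against 22.9% of all tested genes. The median log2 difference was -0.23. With E92K replicate 4 and JQ1 replicate 1 left out, 7 were lower and 1 higher, while in TPM 2 were lower and 1 higher and the median turned to 0.02. HSPA1B, an inducible cytosolic chaperone, had 196, 204, 187 and 126 CPM in E92K libraries, 682, 698, 638 and 711 CPM in JQ1 libraries, and 129.9 to 253 CPM in H2A libraries with DMSO. The groups did not overlap (log2 difference -1.94 ± 0.32), but its near-identical copy HSPA1A can share reads. DNAJB1, a cochaperone, had 113 ± 31.2 CPM in E92K, 232 ± 50.3 CPM in JQ1 and 126 ± 19.6 CPM in H2A cells with DMSO. HSF1, the regulator of these genes, differed by -0.53 ± 0.11. Of 20 ER chaperones and their regulators (1 higher and 4 lower without the 2 libraries), 1 was higher (XBP1, 0.64 ± 0.17) and 2 were lower (SYVN1, -0.79 ± 0.10, and CALR, -0.34 ± 0.12). With all libraries, the share of this list that was called was below the 22.9% of all tested genes. The call of CALR was lost in 14 of 23 other settings. SYVN1 overlaps FAU on the same strand over 7.24% of its exonic length.

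Of 40 S phase genes, 5 were higher and 7 were lower in E92K cells, that is 30.0% called against 22.9% of all tested genes, with a median log2 difference of -0.02. The counts were 6 and 7 without the 2 libraries. With library size alone they were 6 and 3, so the lower calls depended on the scaling, and in TPM they were 2 and 0. E2F2 and E2F8, members of the E2F family, were higher, with log2 differences of 1.45 ± 0.15 and 1.26 ± 0.14. E2F2 had 24.9, 28.1, 35.2 and 30.8 CPM in E92K libraries, 13.3, 11.5, 9.21 and 9.70 CPM in JQ1 libraries, and 30.7 to 38.6 CPM in H2A libraries with DMSO, with no overlap between E92K and JQ1. ASF1B, a histone chaperone of S phase, was lower, at -0.56 ± 0.08. Of 32 mitotic genes, 6 were higher and 1 was lower, and without the 2 libraries 11 and 1. With all libraries 21.9% were called, near the 22.9% of all tested genes. PLK4, the kinase of centriole duplication, had 50.4 ± 3.78 CPM in E92K, 31.4 ± 4.20 CPM in JQ1 and 49.3 ± 3.25 CPM in H2A cells with DMSO. TTK, a spindle checkpoint kinase, had 84.9 ± 5.67 CPM in E92K, 58.5 ± 2.90 CPM in JQ1 and 68.8 ± 11.9 CPM in H2A cells with DMSO.

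Of 23 p53 targets, 5 were higher and 2 were lower in E92K cells, and 5 and 5 without E92K replicate 4 and JQ1 replicate 1. With all libraries 30.4% were called, against 22.9% of all tested genes, and with library size alone 5 were higher and 0 lower and in TPM 3 and 0. These cells hold the large T antigen, which is known to bind p53. MDM2, the ligase of p53, had 68.2, 66.7, 79.1 and 79.0 CPM in E92K libraries, 41.5, 39.4, 43.6 and 39.6 CPM in JQ1 libraries, and 58.3 to 67.6 CPM in H2A libraries with DMSO. The E92K and JQ1 values did not overlap (log2 difference 0.84 ± 0.09). FAS, the death receptor, which overlaps ACTA2 over 10.1% of its exonic length, and PHLDA3, an inhibitor of AKT, differed by 1.42 ± 0.21 and 1.43 ± 0.21. Of 19 tested interferon-stimulated genes, 5 were higher and 1 was lower, and 5 and 2 without the 2 libraries. The share called with all libraries was 31.6%, against 22.9% of all tested genes. IFIT5, an RNA-binding antiviral protein, had 17.1, 16.9, 15.2 and 18.3 CPM in E92K libraries, 5.37, 3.81, 4.71 and 4.24 CPM in JQ1 libraries, and 12.1 to 15.7 CPM in H2A libraries with DMSO. The groups did not overlap (log2 difference 1.91 ± 0.13, adjusted p = 5.12e-08). Its relative IFIT1 differed by 1.39 ± 0.17, and IRF7, the one lower gene, by -1.43. Of 33 hypoxia and glycolysis genes, 8 were lower and 2 were higher (10 and 3 without the 2 libraries), with KDM3A, a histone demethylase, at -0.62 ± 0.12 and PFKL, a glycolytic kinase, at -0.58 ± 0.14. Of these 33 genes, 30.3% were called with TMM factors, against 22.9% of all tested genes, and with library size alone 1 was lower and 3 higher.

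Of the ribosomal protein genes, 0 of 77 tested passed the test in either direction, and their log2 differences lay between -0.37 and 0.29. At an unadjusted p below 0.05 there were 3 of 77, and DESeq2 called 2 of them lower. Their median was -0.10 and turned to 0.06 with library size alone. The 13 messages of the mitochondrial genome did not pass the test with all libraries, with 0 of 13 also at an unadjusted p below 0.05 and a median log2 difference of -0.64. Without E92K replicate 4 and JQ1 replicate 1, 5 of them were higher in E92K cells and the median was 0.26. MT-CO1, a subunit of cytochrome oxidase, had 13401, 11711, 14388 and 25109.7 CPM in E92K libraries, 71297, 12665, 10551 and 10408 CPM in JQ1 libraries, and 11031 to 12675 CPM in H2A libraries with DMSO. Without JQ1 replicate 1 alone, 11 of 13 were higher in E92K cells and the median was 0.54.

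Further genes named by the size of their difference belonged to none of the lists. The choice itself required an adjusted p below 0.05 and groups that do not overlap. KCNJ8, a potassium channel subunit, had 24.4, 21.3, 21.6 and 14.3 CPM in E92K libraries, 2.39, 3.91, 4.14 and 3.64 CPM in JQ1 libraries, and 19.5 to 27.4 CPM in H2A libraries with DMSO. The groups did not overlap (log2 difference 2.52 ± 0.19, adjusted p = 1.04e-07). METTL18, a histidine methyltransferase, differed by 2.28 ± 0.18, PXDC1 by 2.10 ± 0.26 (30.4% of its exonic length overlaps AL391422.3 on the other strand), DACT1, a regulator of Wnt signalling, by 2.10 ± 0.17, PPP1R3B, a glycogen-targeting phosphatase subunit, by 2.09 ± 0.21, PRRG4 by 2.01 ± 0.19 and C3orf33 by 1.97 ± 0.13. METTL18 overlaps C1orf112 on the other strand over 5.77% of its exonic length. FAM222A was lower, with 2.92 ± 0.705 CPM in E92K, 13.5 ± 0.656 CPM in JQ1 and 3.34 ± 0.712 CPM in H2A cells with DMSO (log2 difference -2.21 ± 0.18). PCDH19, a protocadherin, had 4.38, 4.13, 4.22 and 2.64 CPM in E92K libraries, 5.80, 15.7, 16.2 and 15.9 CPM in JQ1 libraries, and 8.60, 9.16, 6.79 and 7.02 CPM in H2A libraries with DMSO. E92K libraries lay below all others, and JQ1 replicate 1 lay below the H2A libraries with DMSO. The log2 difference from JQ1 was -1.81 ± 0.26 (adjusted p = 7.54e-05).

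Setting both groups beside the same 4 H2A libraries with DMSO shows on which side of that level each gene lay. These comparisons share their DMSO libraries, so only values are given side by side. Over all tested genes, the median absolute log2 difference was 0.28 for E92K minus JQ1, 0.16 for E92K minus H2A with DMSO and 0.25 for JQ1 minus H2A with DMSO. For E92K minus H2A with DMSO, edgeR called 0 genes (0%), with 1296 at an unadjusted p below 0.05, and limma-voom called 0. DESeq2 called 4: SLIT3, HIST2H2AA3 and HIST2H2AA4 lower and RANBP6 higher. edgeR without the 2 libraries called 3, MIR17HG higher and PCDH19 and HIST2H2AA4 lower. With library quality weights, limma-voom on all libraries called 476 higher and 622 lower. For JQ1 minus H2A with DMSO, edgeR called 3044 genes (17.6%). SLIT3, RANBP6, MIR17HG and HIST2H2AA3 lie outside the rule for named genes and were chosen after their values were seen.

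**Figure D5:**
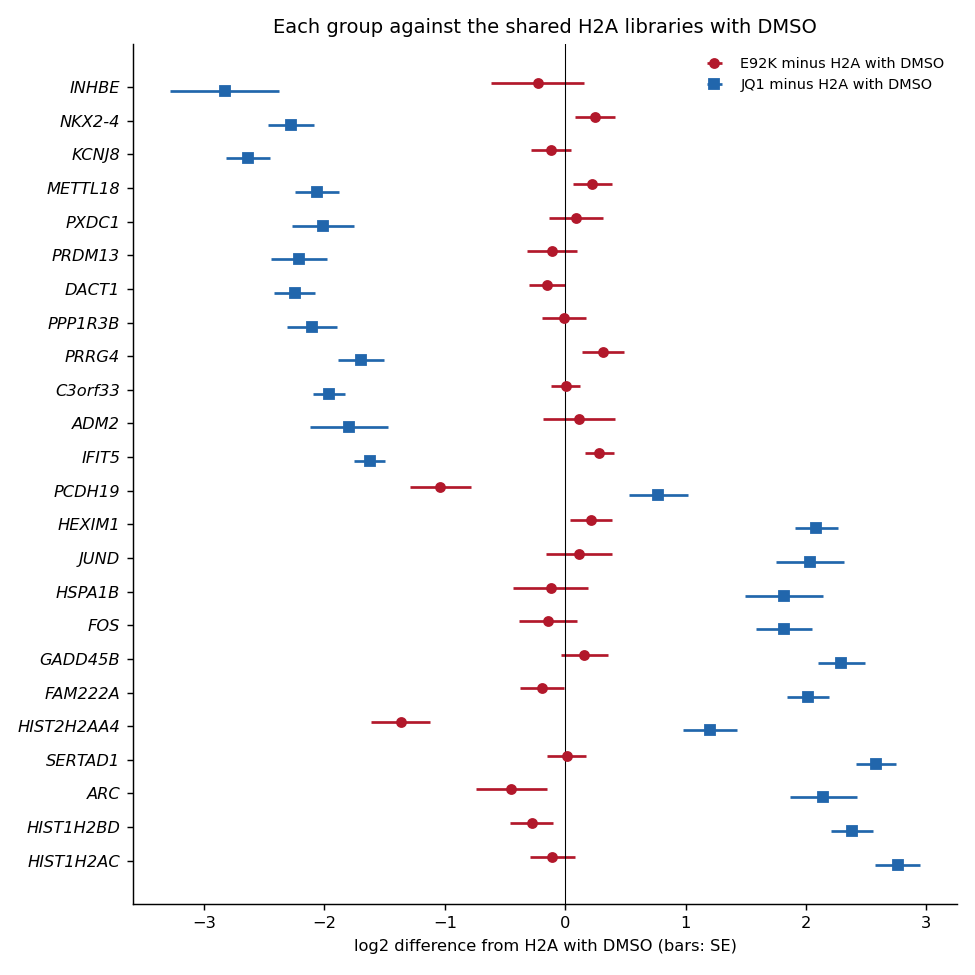
Log2 difference from the shared H2A libraries with DMSO (horizontal axis, bars SE) for E92K (red circles) and JQ1 (blue squares), for the 24 genes named by size, one per row. The red circles mostly lie closer to 0 than the blue squares. PCDH19 and HIST2H2AA4 lie furthest below 0 in E92K and lie above 0 in JQ1. Other genes, such as ARC and FOS, lie on the same sides with smaller differences in E92K.

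SLIT3, which encodes a guidance ligand, had 10.0 ± 1.23 CPM in E92K, 17.5 ± 1.90 CPM in JQ1 and 15.5 ± 1.06 CPM in H2A cells with DMSO. RANBP6, an importin, had 44.6 ± 1.45 CPM in E92K, 26.4 ± 1.65 CPM in JQ1 and 34.8 ± 2.04 CPM in H2A cells with DMSO. MIR17HG, the host gene of the oncogenic microRNA cluster of the same name, had 15.2 ± 2.13 CPM in E92K, 6.78 ± 5.53 CPM in JQ1 and 7.46 ± 1.32 CPM in H2A cells with DMSO. For the lists, the median difference from H2A with DMSO was -0.05 in E92K and 1.38 in JQ1 cells for replication-dependent histones. It was 0.05 in E92K and -0.67 in JQ1 cells for HOX and TALE genes, and -0.08 in E92K and 1.62 in JQ1 cells for the genes known to rise with BET inhibitors.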

How the data were processed

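RNA-seq of HEK293T cells was deposited by the authors as gene counts, whole numbers with no normalization. A second deposited table held TPM, whose values equalled the counts divided by gene length and rescaled to a fixed sum per library. Aligner, counter and strand setting: not given in the sources used here. From the deposited counts, all 16 libraries were fitted in edgeR 4.0.16 (R 4.3.3) with one mean per group, TMM factors and a filter on low counts (filterByExpr, minimum count 10 and total 15). E92K with DMSO minus H2A with JQ1 was tested by the quasi-likelihood test with Benjamini-Hochberg adjustment and a threshold of 0.05. An SE is the log2 difference divided by the root of its F value, CPM uses TMM-adjusted library sizes, and libraries held 17779692 to 27599686 counts. On simulated data the fit recovered 31.3%, 83.6% and 100% of genes changed 1.5, 2 and 4 fold, with 3 false calls. The simulation drew independent counts for 17088 genes and changed 67, 67 and 66 of them, far fewer than differed here. It held no library that stood apart, so it gives no error rate for the contrast itself.

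The gene lists and the genes named were chosen with earlier results of these data known. Named were the 12 largest differences each way (called with and without E92K replicate 4 and JQ1 replicate 1, at least 5 CPM, groups not overlapping), a fixed set (HEXIM1, SERPINI1, MYC, BRD2, BRD3, HOXA9, MEIS1, HIST1H2AC and the variant H2A genes), and, from each list, its 3 called members of lowest adjusted p at most. Other members are examples of a list's count. Some genes that the rule or the lists hold are not reported here. Alternatives included DESeq2 1.42.0, limma 3.58.1 on counts (voom) and on log2(TPM + 1), other scalings and filters, a replicate block and libraries left out. GC content came from the longest GENCODE transcript of each gene.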

Additional observations from a re-analysis of the deposited data

Results flagged for a closer look

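In 17 of 170 groups of 4 values checked for the named genes, one library lay far from the other 3 relative to the range of the group; chance gives about 1 in 20 such groups. E92K replicate 4 accounted for 8 of them, JQ1 replicate 1 for 8 and E92K replicate 2 for 1.

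E92K replicate 4 was high for NKX2-4 (17.1 CPM), HOXB8 (17.4 CPM), MEIS1 (21.1 CPM) and BMI1 (84.95 CPM). It was low for HOXA9 (37.7 CPM), H2AFY2 (88.7 CPM), MXD4 (96.9 CPM) and PCDH19 (2.64 CPM). This library had 7.45% of its counts in mitochondrial messages, and the part of that in these values was not tested.

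JQ1 replicate 1 was high for HEXIM1 (213 CPM), HIST1H2BD (25.1 CPM), H2AFX (511 CPM), H2AFJ (63.7 CPM), JUND (799 CPM) and GADD45B (78.2 CPM). It was low for MYC (178 CPM) and PCDH19 (5.80 CPM). This library had 16.5% of its counts in mitochondrial messages, and the part of that in these values was not tested. E92K replicate 2 was high for FOS (4.74 CPM).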

How the results depend on the processing

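Against 2068 genes higher and 1894 lower in E92K cells, library size alone gave 2858 and 710, and limma on TPM 1885 and 295. The 8 libraries of both groups alone gave 1329 and 947, a threshold of 0.01 gave 1295 and 921, the mitochondrial share as covariate 3099 and 3203, and library quality weights 3763 and 4056. The other alternatives stayed within 1.5 times, and the cause of these shifts was not tested. Leaving out one library of either group at a time gave 1696 to 2927 genes higher and 1301 to 2709 lower. Chosen after seeing the data, a fit of the 6 libraries without E92K replicate 4 and JQ1 replicate 1 gave 2747 and 2737. Of 80 called named genes, 64 kept their call in all 23 other settings, among them all 24 named by size, and IFIT3 kept it in the 22 that tested it. The genes named by size had to be called in the fit without E92K replicate 4 and JQ1 replicate 1, which is among these settings. Part of their record was thus fixed by that choice. In TPM the log2 differences of H2AFZ (0.0313) and H2AFY (0.0055), which passed no test, changed sign. That of H2AFJ lay between -0.53 and 0.0175 with one library left out. With the replicate block, 1800 genes were higher and 1452 lower. Deviations of same-numbered E92K and JQ1 libraries from their group means correlated at -0.53, 0.36, 0.17 and -0.71. E92K replicate 4 and JQ1 replicate 1 weigh on those means, so these values cannot tell whether the numbers pair the samples.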
